A study of Bos taurus with 96 samples.

Results

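The genes PC, SDS and FBP2 were examined in liver and muscle of dairy cows before calving, just after calving and in mid lactation. They were picked by symbol as enzymes of glucose synthesis that the study names, and they were found by identifier as PC (ENSBTAG00000019700), SDS (ENSBTAG00000031814) and FBP2 (ENSBTAG00000019554), which are 3 of the 24616 genes in the count files. No measured value entered the choice of rows, but the study named these genes because it called them by genotype on the same libraries. All 3 genes passed the filter on low counts in both tissues.

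Biopsies were taken from 16 Holstein cows, 8 with good genetic merit for fertility (Fert+) and 8 with poor merit (Fert-), all managed as 1 herd with first and second parity animals in both genotypes. Each cow gave liver and semitendinosus muscle in late pregnancy (LP), at about the day after calving (EL) and in mid lactation, in the fifth month after calving (ML). This gave 96 RNA-seq libraries, 48 for each tissue, of which 16 belong to each time-point. No cow was bred during the lactation sampled, the genotypes differ by estimated breeding value and not by a known allele, and a biopsy holds all cell types of the tissue.

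In ruminants little dietary glucose is absorbed, so the liver makes most of the glucose that leaves it, mainly from propionate made in the rumen, and also from lactate, glycerol and amino acids. Pyruvate carboxylase (PC) turns pyruvate into oxaloacetate in mitochondria, the entry step for lactate and for amino acids such as alanine, and it also refills the citric acid cycle in other tissues. Serine dehydratase (SDS) turns serine into pyruvate and ammonia and is mainly a liver enzyme. Fructose-1,6-bisphosphatase 2 (FBP2) is the muscle form of the enzyme that removes a phosphate from fructose-1,6-bisphosphate, whereas FBP1 is the liver form.

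Libraries held between 14966847 and 26358063 counts in liver and between 15279337 and 22018740 in muscle. Expression is given as CPM, the read-pair count of a gene scaled to a common library size through the library total and the TMM factor of edgeR. Gene length is not corrected for, so levels are compared within a gene only. The 8 hepatocyte markers together made up 72847 to 227920 CPM of every liver library and the 9 skeletal muscle identifiers 18009 to 254452 CPM of every muscle library, so both tissues carried their defining markers. In liver, the change of all genes from LP to EL in a cow was correlated with the mean change of the other 15 cows at r between 0.02 and 0.62 in 14 cows, but at -0.60 in cow 426 and -0.25 in cow 3434 (13406 genes). The library labelled LP of cow 426 (Fert-) held 38876 CPM of the albumin gene ALB and 1320 CPM of the glucose-6-phosphatase gene G6PC, against medians of 100597 and 446 CPM at LP. ALB ranged from 24721 to 154800 CPM at LP, so this library was not the lowest. Its G6PC value was also above the highest EL (805 CPM) and ML (1083 CPM) libraries. The library labelled EL of cow 426 held 97887 CPM of ALB, against a median of 56519 CPM at EL. The acute-phase gene AGP was at 23264 CPM in its library labelled LP and 3798 CPM in that labelled EL, against medians of 5589 and 6864 CPM. A set of 13 libraries, 8 of liver and 5 of muscle, was called counting batch B because it counts genes that the other 83 libraries hardly count. The labels name no batch, and the set was defined from the counts alone. It rests on 19 genes with a median of at most 2 counts and a peak of at least 50 in each tissue. Batch B libraries reached 50 counts in at least 11 of these genes, and the others in at most 3. What sets these libraries apart was not tested. Whether libraries of cows 426 and 3434 carry an exchanged time-point or cow label was not tested, so their PC and SDS values hold only as labelled. Changes between time-points in liver are given with all cows, and also without cows 426 and 3434 or without batch B where the call of a member or of a listed gene differed. Cows 426 and 3434 were picked by their LP to EL change. The EL versus LP fits without them are therefore no independent support for any gene, and were apt to call more genes.

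The fold changes between time-points come from the quasi-likelihood test of edgeR with each cow as a block, adjusted over all genes tested, and a gene was called DE at an adjusted p under 0.05. The change within each cow of log2(CPM + 1) was tested beside it by an exact sign-flip permutation test over the 16 cows, two-sided, for 18 differences in all, and these exact p values are not adjusted. The smallest p this permutation test can give is 3.05e-05. The SE beside each edgeR log2 fold change was derived from that fit, as its absolute value divided by the square root of the F statistic. In bulk tissue, fewer cells of a type and less RNA per cell cannot be told apart.

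Of the 3 genes, PC and SDS were higher in liver and FBP2 was higher in muscle. On counts summed over the 3 time-points of a cow, PC was at 609 ± 205 CPM (SD, n = 16) in liver and 16.6 ± 2.27 CPM in muscle, 35.1-fold higher in liver (log2 fold change 5.13, SE 0.16, adjusted p = 1.5e-17). SDS was at 29.6 ± 30.2 CPM in liver and 1.71 ± 1.19 CPM in muscle (log2 fold change 3.85, SE 0.39, adjusted p = 3.1e-08). FBP2 was at 4.99 ± 5.07 CPM in liver and 549 ± 114 CPM in muscle (log2 fold change -7.64, SE 0.70, adjusted p = 9.4e-09). The sums of no cow overlapped between tissues for any of the 3 genes. This separation is the rule between such tissues, since 91% of 14596 genes tested were called.

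In liver, PC was lowest in mid lactation and highest just after calving. At LP it ranged from 254 to 2789 CPM with a median of 500 CPM, at EL from 456 to 2539 CPM with a median of 884 CPM, and at ML from 154 to 844 CPM with a median of 282 CPM. The LP range is set by the library labelled LP of cow 426, the highest of all 48, since the next highest LP library held 649 CPM. From LP to EL, PC increased 1.89-fold (log2 fold change 0.92, SE 0.25, adjusted p = 0.042), and it was higher at EL in 14 of 16 cows (exact sign-flip p = 0.0054). It was called in a comparison in which 2.48% of 13406 genes were called. The 2 cows in which PC was lower at EL were cows 426 and 3434.

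The rise of PC from LP to EL was close to the threshold and moved across it with small changes of the data. Without cows 426 and 3434 it was 1.23 on the log2 scale (adjusted p = 2.3e-04), in a fit that called 1841 genes in place of 332. Both cows were picked by their LP to EL change and PC fell in both, so a larger rise without them was built in. Without batch B it was 0.62 (adjusted p = 0.38), and that fit called 0 genes. The call was also lost when any 1 of cows 33, 164, 419, 430, 756, 782, 829, 982, 1179, 3397, 3445 or 3847 was left out, with log2 fold changes from 0.81 to 0.97 and adjusted p from 0.052 to 0.10. All these values were above 0, and among cows with no batch B library at either time-point the mean change was 0.67 (exact sign-flip p = 0.059).

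From EL to ML, PC fell in liver in all 16 cows. It fell by 1.72 on the log2 scale (SE 0.25, adjusted p = 1.0e-05; exact sign-flip p = 3.05e-05), and 15 of the 16 ML libraries lay below the lowest EL library. Here 42.3% of genes were called. The remaining ML library, of cow 996, held 844 CPM against 922 CPM at EL. Without cows 426 and 3434 the log2 fold change was -1.79 (adjusted p = 5.9e-07) and without batch B it was -1.46 (adjusted p = 0.0011). Without cow 996, whose ML minus EL change of all genes ran against the other cows, it was -1.85.

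From LP to ML, liver PC fell by 0.80 on the log2 scale (SE 0.25, adjusted p = 0.029) and was lower at ML in 14 of 16 cows (exact sign-flip p = 0.0054), in a comparison that called 15.4% of genes. The cows in which it was higher at ML were cow 996 and cow 3397, with 293 CPM at LP and 304 CPM at ML in the latter. This call was lost without cows 426 and 3434 (-0.56, adjusted p = 0.063), without batch B (-0.84, adjusted p = 0.061), and without cow 33 (-0.77, adjusted p = 0.055), cow 426 (-0.58, adjusted p = 0.0502), cow 782 (-0.75, adjusted p = 0.051) or cow 3445 (-0.78, adjusted p = 0.051). Without cow 996 the log2 fold change from LP to ML was -0.96.

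**Figure D1:**
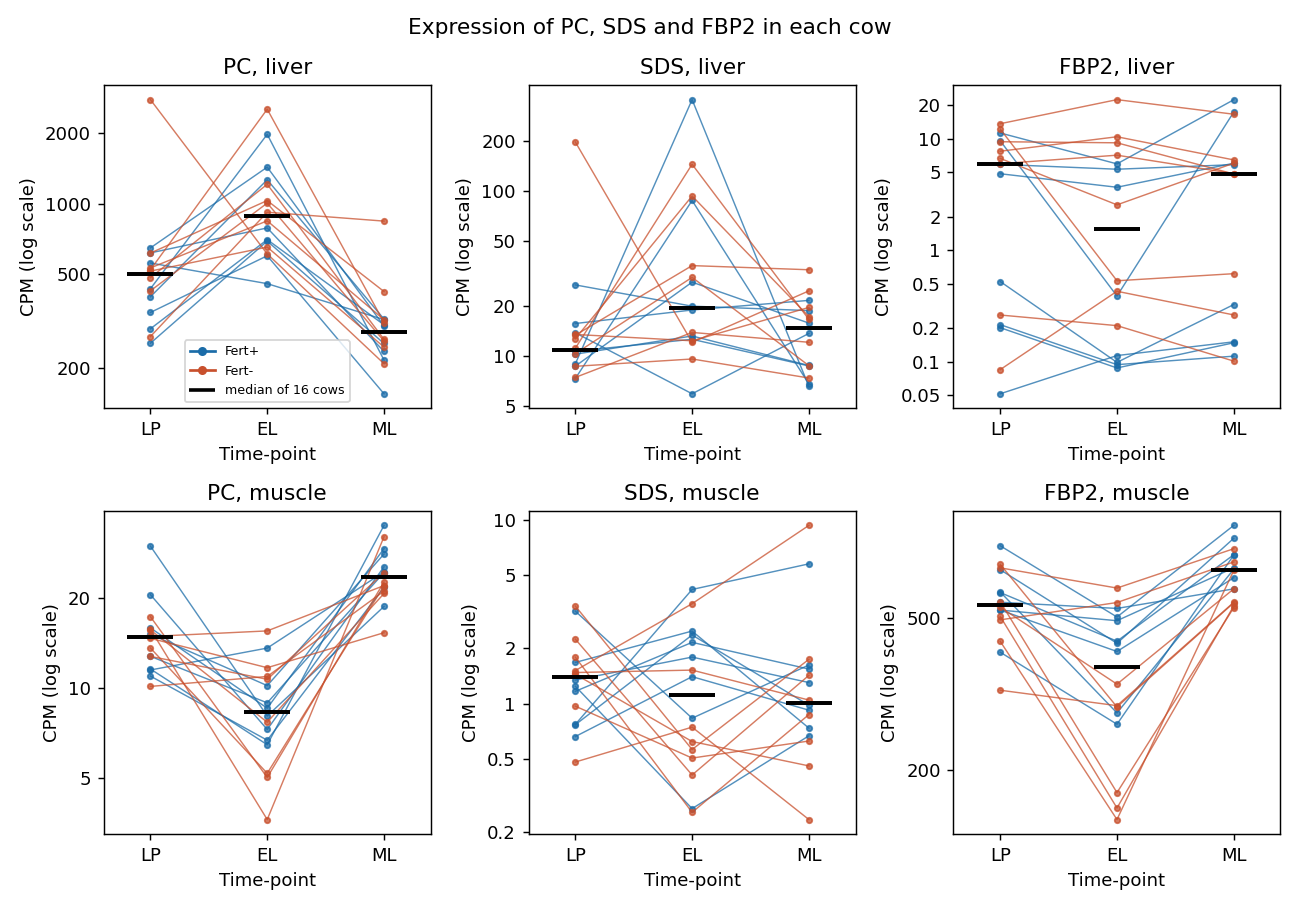
CPM on a log scale (y) of PC, SDS and FBP2 at LP, EL and ML (x) in liver (top) and muscle (bottom). Each line is 1 cow, blue for Fert+ and red for Fert-, and the black bar is the median of 16 cows. PC peaks at EL in liver (median 884 CPM) and dips at EL in muscle (median 8.33 CPM), and FBP2 in liver separates cows more than time-points.

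SDS in liver was low in most libraries and high in a few, all but 1 of which were EL libraries. It ranged from 7.32 to 198 CPM at LP (median 10.9), from 5.92 to 357 CPM at EL (median 19.5) and from 6.56 to 33.3 CPM at ML (median 14.8). The high EL values came from cow 3847 (357 CPM), cow 419 (145 CPM), cow 164 (93.1 CPM) and cow 756 (87.4 CPM), and the high LP value from the library labelled LP of cow 426 (198 CPM). Both genotypes held 2 of these 4 cows with high EL values. The EL libraries of cows 3847 and 419 belong to batch B, and those of cows 164 and 756 do not.

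From LP to EL, SDS was higher in 12 of 16 cows, but the change was not DE (log2 fold change 1.22, SE 0.47, adjusted p = 0.13; exact sign-flip p = 0.087). It was called without cows 426 and 3434 (1.70, adjusted p = 0.0076) and without cow 426 alone (1.53, adjusted p = 0.016), whereas without batch B it was 0.49 (adjusted p = 0.67). From EL to ML, SDS fell by 1.25 on the log2 scale (SE 0.46, adjusted p = 0.027) and was lower at ML in 12 of 16 cows (exact sign-flip p = 0.041). This call depended on the cows with high EL values. It was lost without cow 164 (-1.12, adjusted p = 0.062), cow 419 (-1.03, adjusted p = 0.069), cow 756 (-1.02, adjusted p = 0.077) or cow 3847 (-0.92, adjusted p = 0.066), and without batch B (-0.71, adjusted p = 0.21). The exact sign-flip p rose to between 0.0502 and 0.081 without any 1 of cows 164, 419, 756, 782, 1179, 3397 or 3847. Without cows 426 and 3434 it was -1.45 (adjusted p = 0.0058). Between LP and ML the log2 fold change was -0.03 (SE 0.43, adjusted p = 0.97).

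Markers of neutrophils also reached their highest values in EL liver libraries, where the 3 measured markers (S100A8, S100A9 and S100A12) summed to between 2.33 and 284 CPM, against at most 19.3 CPM at LP and 11.01 CPM at ML. The summed hepatocyte markers had medians of 157106, 123372 and 145083 CPM at LP, EL and ML. The part of either in the PC and SDS values was not tested.

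PC and SDS in liver were both highest in the library labelled LP of cow 426 and the EL libraries of cows 419 and 3847. The other EL libraries with high SDS, of cows 164 and 756, held 1008 and 694 CPM of PC, against an EL median of 884 CPM. At EL, log2(CPM + 1) of the 2 genes was correlated across 16 cows (Pearson r = 0.65, permutation p = 0.0070, adjusted over 10 relations 0.029; Spearman rho = 0.54, permutation p = 0.034). Without cows 419 and 3847, the 2 cows farthest from the median of PC, r was 0.26 (permutation p = 0.37), so the relation rests on them. Both lie in batch B at EL, and without batch B r was 0.23. Within genotypes at EL, r was 0.66 in Fert+, the genotype of cow 3847, and 0.66 in Fert-, the genotype of cow 419. At LP, r was 0.84 (permutation p = 0.0087, adjusted 0.029; rho = 0.51, permutation p = 0.047) and fell to 0.14 (permutation p = 0.64) without cows 426 and 756. Within genotypes at LP, r was 0.31 in Fert+ and 0.94 in Fert-, the genotype of cow 426. At ML, r was -0.10 (permutation p = 0.74; rho = 0.06, permutation p = 0.82), with 0.51 in Fert+ and -0.62 in Fert-.

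The EL minus LP changes of PC and SDS were also correlated across cows (r = 0.77, permutation p = 7.8e-04, adjusted 0.0078; rho = 0.50, permutation p = 0.052). Without cows 426 and 3434, which were farthest from the median of the PC change, r was 0.49 (permutation p = 0.078). It was 0.70 in the 12 cows with no batch B library at either time-point, 0.63 in Fert+ and 0.87 in Fert-.

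**Figure D2:**
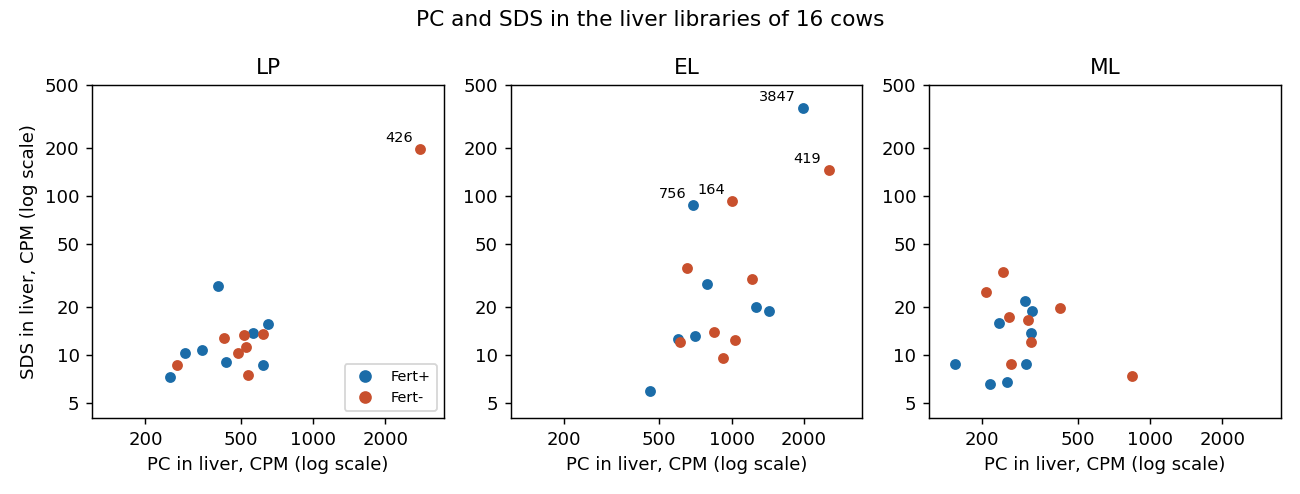
SDS against PC in liver, both in CPM on log scales, with 1 point per cow at LP, EL and ML, blue for Fert+ and red for Fert-. Cows above 60 CPM of SDS are numbered: cow 426 stands alone at LP, cows 3847, 419, 164 and 756 stand above the rest at EL, and no ML library exceeds 33.3 CPM.

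FBP2 in liver differed between cows far more than between time-points. It was under 1 CPM in all 3 liver libraries of 6 cows (33, 756, 782 and 3847 of Fert+, and 419 and 1179 of Fert-) and above 1 CPM in all 3 of 8 cows. The low cows held 0.05 to 0.52 CPM, and cow 996, the highest, held 13.6, 22.4 and 16.6 CPM at LP, EL and ML. The other cows changed side. The libraries labelled LP, EL and ML held 12.2, 0.53 and 0.62 CPM in cow 829 and 9.59, 0.39 and 17.4 CPM in cow 3434. Cow 3434 is 1 of the 2 cows whose EL minus LP change ran against the other cows. Whether any of these 6 libraries belongs to another cow or time-point was not tested, so these values need not be changes within a cow.

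After the mean of each time-point was removed, the intraclass correlation of the 3 liver libraries of a cow, which is near 1 where cows keep their own level, was 0.78 for FBP2. The median over 13406 genes was 0.16, and 99.4% of genes were lower than FBP2. For PC and SDS in liver it was -0.09 and -0.06, and for FBP2 in muscle it was 0.34 against a median of 0.16 over 12304 genes. This measure was chosen after the liver values of FBP2 had been seen. Of the 6 low cows, 4 had a batch B library in liver and cows 782 and 1179 had none, and of the other 10 cows 2 had one. The batch A libraries of those 4 low cows were also under 1 CPM.

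**Figure D3:**
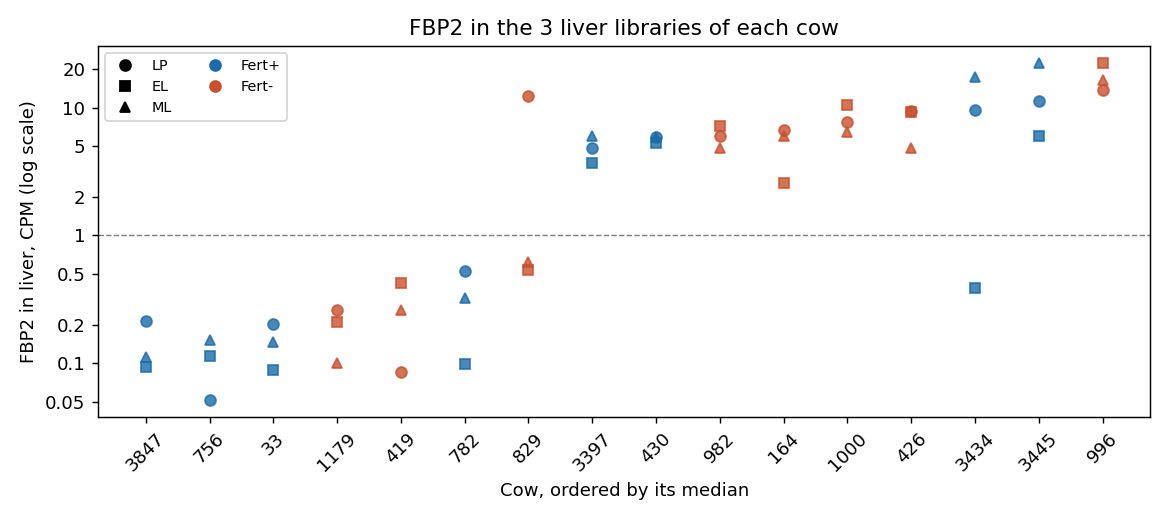
CPM of FBP2 in liver on a log scale (y) for each of 16 cows ordered by their median (x), with circles for LP, squares for EL and triangles for ML, blue for Fert+ and red for Fert-. The dashed line is at 1 CPM: 6 cows lie wholly below it, 8 wholly above it, and cows 829 and 3434 lie on both sides.

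FBP2 was not DE between time-points in liver. Its medians were 5.93, 1.54 and 4.85 CPM at LP, EL and ML, the ranges were 0.05 to 13.6, 0.09 to 22.4 and 0.10 to 22.4 CPM, and the log2 fold changes were -0.65 (SE 0.38, adjusted p = 0.31) for EL versus LP, 0.44 (SE 0.38, adjusted p = 0.36) for ML versus EL and -0.21 (SE 0.37, adjusted p = 0.74) for ML versus LP. The time-points overlapped in most libraries. The libraries outside the range of another time-point were 3 ML libraries and 1 EL library above the highest LP library, 2 LP libraries below the lowest EL and ML libraries, and, against ML, 1 EL library above and 3 EL libraries below. Skeletal muscle markers were near 0 in the liver libraries. Their sum was at most 0.62 CPM, creatine kinase CKM was at 0 counts in 41 of 48 libraries, and the sum was not positively correlated with FBP2 beyond the spread at any time-point (r = 0.22, -0.08 and -0.49 at LP, EL and ML, permutation p = 0.40, 0.76 and 0.053; rho = 0.31, -0.14 and -0.53, permutation p = 0.23, 0.62 and 0.038). Without the 2 cows farthest on the marker axis r was 0.45, -0.06 and -0.60 (permutation p = 0.11, 0.83 and 0.025), within Fert+ 0.30, 0.40 and -0.32, within Fert- -0.02, -0.38 and -0.72, and without batch B 0.07, -0.13 and -0.48. The adjusted p over 10 relations was 0.13 at the lowest.

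FBP1, the liver paralog, was measured in every liver library at 92.2 to 875 CPM. Its means were 524 ± 155, 427 ± 167 and 368 ± 120 CPM (SD, n = 16) at LP, EL and ML, and it was DE for ML versus LP only (log2 fold change -0.50, SE 0.17, adjusted p = 0.046), which was lost without cows 426 and 3434 (-0.43, adjusted p = 0.15) and with library totals in place of TMM factors (-0.43, adjusted p = 0.074). The annotation of ARS-UCD2.0, a later assembly than the one the counts use, places FBP1 next to FBP2 and the SDS paralog SDSL next to SDS. The study counted a read pair where it mapped to 1 gene only. Whether pairs that match both of a pair of paralogs were left out or placed on either was not tested. Low values of FBP2 in liver and of FBP1 in muscle are uncertain to that extent. SDSL was not analysed here.

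In muscle, PC took the opposite course to liver. It ranged from 10.2 to 29.9 CPM at LP (median 14.8), from 3.64 to 15.6 CPM at EL (median 8.33) and from 15.4 to 35.1 CPM at ML (median 23.5). At EL, 10 of 16 libraries lay below the lowest LP library, and 15 of the 16 ML libraries lay above the highest EL library. PC fell from LP to EL by 0.80 on the log2 scale (SE 0.16, adjusted p = 7.3e-05) in 13 of 16 cows (exact sign-flip p = 4.0e-04). From EL to ML it increased 2.82-fold (log2 fold change 1.497, SE 0.16, adjusted p = 1.2e-09) in 16 of 16 cows (exact sign-flip p = 3.05e-05). It was also higher at ML than at LP (log2 fold change 0.69, SE 0.16, adjusted p = 0.0043), in 15 of 16 cows (exact sign-flip p = 3.4e-04). These comparisons called 58.3% (EL versus LP), 63.7% (ML versus EL) and 9.1% (ML versus LP) of 12304 genes.

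FBP2 in muscle dipped at EL as well. It ranged from 323 to 775 CPM at LP (median 542), from 148 to 600 CPM at EL (median 372) and from 533 to 876 CPM at ML (median 670). The groups overlapped, with 7 of 16 EL libraries below the lowest LP library and 14 of 16 EL libraries below the lowest ML library. It fell from LP to EL by 0.65 on the log2 scale (SE 0.12, adjusted p = 2.0e-05), in 15 of 16 cows (exact sign-flip p = 1.8e-04), and increased from EL to ML 1.90-fold (log2 fold change 0.93, SE 0.12, adjusted p = 3.4e-08) in 16 of 16 cows (exact sign-flip p = 3.05e-05). For ML versus LP it was higher in 14 of 16 cows (exact sign-flip p = 0.0016), but not DE (log2 fold change 0.28, SE 0.12, adjusted p = 0.14).

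The size of these muscle changes depended on the scaling. With library totals in place of TMM factors, changes in muscle were shifted relative to TMM by 0.36 from LP to EL and by -0.42 from EL to ML on the log2 scale. The mean LP to EL change within cows was then -0.43 in place of -0.76 for PC (exact sign-flip p = 0.033) and -0.32 in place of -0.68 for FBP2 (exact sign-flip p = 0.026), and the EL to ML change was 1.04 in place of 1.42 for PC and 0.54 in place of 0.96 for FBP2 (exact sign-flip p = 6.1e-05 for both). In the edgeR fit with library totals these 4 changes were -0.44 (adjusted p = 0.018) and 1.07 (adjusted p = 6.0e-07) for PC and -0.30 (adjusted p = 0.0082) and 0.52 (adjusted p = 1.7e-05) for FBP2, in the same directions and called.

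Markers of cell types moved in muscle over the same time-points. The skeletal muscle markers summed to 132270 to 211480 CPM at LP, 18009 to 188332 CPM at EL and 178914 to 254452 CPM at ML. Their medians were 189837, 58552 and 211620 CPM. The 3 measured adipocyte markers (ADIPOQ, CIDEC and FABP4) summed to medians of 6.23, 6.05 and 15.3 CPM, and the hepatocyte markers to medians of 2.82, 2.86 and 11.99 CPM with a highest value of 175 CPM at ML. Across cows, PC in muscle was not correlated with the adipocyte sum beyond the spread (r = -0.26, 0.18 and -0.39 at LP, EL and ML, permutation p = 0.33, 0.52 and 0.13; rho = 0.01, 0.03 and -0.35, permutation p = 0.97, 0.92 and 0.18). Without the 2 cows farthest on the marker axis r was -0.39, 0.13 and -0.19 (permutation p = 0.16, 0.66 and 0.50), within Fert+ -0.11, -0.02 and -0.03, within Fert- -0.56, 0.31 and -0.52, and without batch B -0.24, 0.27 and -0.46. The part of the fall of the skeletal muscle markers in the PC and FBP2 values was not tested.

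SDS in muscle was close to the detection limit, at 0.48 to 3.40 CPM at LP, 0.26 to 4.19 CPM at EL and 0.23 to 9.36 CPM at ML, from 4 to 173 read pairs per library. The ranges overlapped and it was not DE in any comparison, with log2 fold changes of -0.29 (SE 0.33), 0.11 (SE 0.33) and -0.18 (SE 0.33) for EL versus LP, ML versus EL and ML versus LP, and an adjusted p of 0.47 at the lowest.

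**Figure D4:**
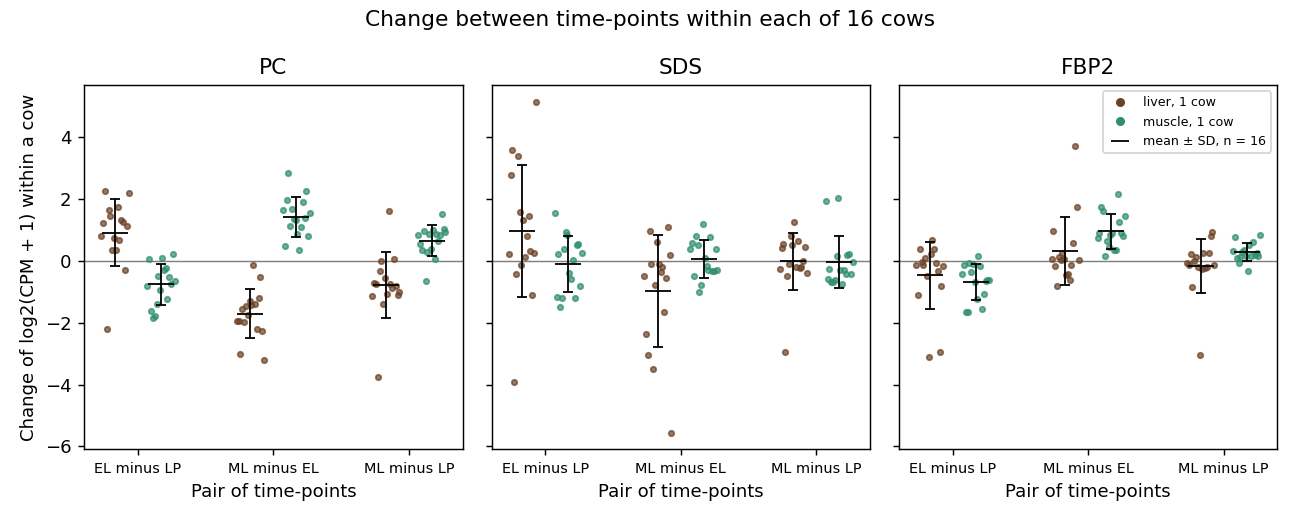
Change of log2(CPM + 1) within each cow (y) between pairs of time-points (x) for PC, SDS and FBP2, with brown points for liver and green for muscle, and the mean ± SD of 16 cows in black. For PC the liver points lie mostly above 0 and the muscle points mostly below 0 from LP to EL, and all 16 points of each tissue are on opposite sides of 0 from EL to ML.

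The course of PC differed between the tissues in a test of the difference itself. The EL minus LP change in liver exceeded that in muscle in 15 of 16 cows, by a mean of 1.68 ± 1.19 (SD, n = 16) on the log2 scale (exact sign-flip p = 9.2e-05, over 9 such differences, not adjusted). For ML minus EL the liver change was below the muscle change in 16 of 16 cows, by -3.12 ± 1.10 (exact sign-flip p = 3.05e-05), and for ML minus LP in 14 of 16 cows, by -1.44 ± 1.37 (exact sign-flip p = 8.5e-04). For SDS the ML minus EL change was lower in liver in 13 of 16 cows (-1.06 ± 1.65, exact sign-flip p = 0.018), which was -0.79 (exact sign-flip p = 0.055) with library totals. The EL minus LP change of SDS differed by 1.07 ± 2.10 (exact sign-flip p = 0.061), with liver higher in 11 of 16 cows, and passed 0.05 without cow 33 (1.23, exact p = 0.040), cow 426 (1.30, exact p = 0.022), cow 829 (1.20, exact p = 0.045) or cow 3434 (1.25, exact p = 0.034). For FBP2 the ML minus LP change was lower in liver in 11 of 16 cows (-0.44 ± 0.89, exact sign-flip p = 0.039), and this was lost with library totals (-0.34, exact sign-flip p = 0.13), with a pseudocount of 0.1 (-0.53, exact sign-flip p = 0.090) and without any 1 of cows 33, 164, 426, 782, 829, 1000, 1179 or 3847, the smallest difference being -0.25 without cow 829. The ML minus EL change of FBP2 was lower in liver in 13 of 16 cows (-0.64 ± 1.28, exact sign-flip p = 0.064), with -0.87 (exact sign-flip p = 0.0031) without cow 3434 and -0.75 (exact sign-flip p = 0.036) without cow 3445, and the EL minus LP change differed by 0.21 ± 1.28 (exact sign-flip p = 0.53).

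None of the 3 genes was DE between genotypes by the quasi-likelihood test. The study reported PC, SDS and FBP2 as lower in liver of Fert+ cows at LP, and SDS as higher in their muscle at EL. For PC in liver at LP, Fert+ cows had 444 ± 149 CPM and Fert- cows 770 ± 822 CPM (SD, n = 8 each), where the Fert- SD comes from the library labelled LP of cow 426. By the quasi-likelihood test of edgeR its log2 fold change, Fert+ relative to Fert-, was -0.80 (SE 0.41, adjusted p = 0.81; exact permutation p = 0.26 on the log scale). For SDS at LP, the Fert+ cows had 12.8 ± 6.36 CPM and the Fert- cows 34.4 ± 66.0 CPM (log2 fold change -1.43, SE 0.72, adjusted p = 0.79; exact permutation p = 0.67). Without cow 426 the log2 fold change of PC was -0.12, so most of its difference came from that cow. The log2 fold change of SDS without cow 426 was 0.22, the opposite direction. The other Fert- libraries at LP reached at most 13.5 CPM of SDS, so that both genotypes overlapped.

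Liver FBP2 in Fert+ and Fert- cows, respectively, was 4.07 ± 4.55 and 6.99 ± 4.96 CPM at LP, 1.97 ± 2.58 and 6.61 ± 7.60 CPM at EL, and 6.55 ± 8.70 and 4.97 ± 5.39 CPM at ML (SD, n = 8 each). The log2 fold changes were -0.78 (SE 0.91), -1.75 (SE 0.99) and 0.44 (SE 1.03), with adjusted p of 0.93, 0.47 and 0.89 by edgeR, and 4 Fert+ and 2 Fert- cows were under 1 CPM throughout. In muscle at ML, the Fert+ cows had 717 ± 91.5 CPM of FBP2 and the Fert- cows 612 ± 87.1 CPM (log2 fold change 0.23, SE 0.10, unadjusted p = 0.029 and adjusted p = 0.60 by edgeR; exact permutation p = 0.032), and all 8 Fert+ cows lay above the Fert- median. Over the 18 genotype differences of the 3 genes this was the lowest exact p.

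These genotype tests called 0 of the 3 genes in any tissue and time-point, against 0% of all genes at each time-point in liver, 0% in muscle at LP and at ML, and 0.00831% (1 gene) in muscle at EL. At an unadjusted p under 0.05 the same edgeR tests gave, at LP, EL and ML in turn, 842, 1530 and 1640 liver genes and 800, 1426 and 918 muscle genes. DESeq2 called 0, 6 and 77 liver genes and 27, 119 and 10 muscle genes, none of them PC, SDS or FBP2. The exact test of edgeR with 1 common dispersion for all genes, an approach close to that of the study, called PC (adjusted p = 0.0030), SDS (adjusted p = 2.8e-10) and FBP2 (adjusted p = 0.010) in liver at LP, FBP2 in liver at EL (adjusted p = 4.7e-07) and SDS in muscle at EL (adjusted p = 0.015). That test gives every gene the same spread between cows. The study named the genes from its own calls on these libraries, so these calls are not independent of that choice.

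The change between time-points was also compared between genotypes. The ML minus EL change of FBP2 in liver was 0.83 ± 1.31 in Fert+ and -0.19 ± 0.55 in Fert- on the log2 scale (exact permutation p = 0.033), and the ML minus LP change was 0.21 ± 0.43 and -0.52 ± 1.07 (exact permutation p = 0.047), and these were the 2 lowest p of 18 such tests, not adjusted. With a pseudocount of 0.1 the second difference was 0.85 (exact permutation p = 0.15). The values of cow 3434 (Fert+) at EL and of cow 829 (Fert-) at LP enter these. In the edgeR fit across all genes with cows as blocks, the genotype by time-point F for FBP2 in liver was 3.64 (unadjusted p = 0.038, adjusted p = 0.65), and it was 0.28 for PC (adjusted p = 0.94) and 0.10 for SDS (adjusted p = 0.98). In muscle F was 0.16, 2.66 and 1.27 for PC, SDS and FBP2 (adjusted p of 0.63 or above). Both fits called 0% of genes, with 1067 genes in liver and 1158 in muscle at an unadjusted p under 0.05.

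Among 10 measured gluconeogenic enzymes, PC was the only one called in liver for EL versus LP, where 2.48% of all genes were called. PCK1, which turns oxaloacetate into phosphoenolpyruvate, had a log2 fold change of -0.36 (SE 0.22, adjusted p = 0.34), FBP1 of -0.34 (SE 0.17, adjusted p = 0.25), and G6PC, the catalytic subunit of the last step, of 0.03 (SE 0.18, adjusted p = 0.95). The median of the list was 0.05 against 0.01 over all genes. Without batch B none of the 10 was called (0% of all genes), and without cows 426 and 3434 the malate dehydrogenase genes MDH1 (0.50, adjusted p = 0.0028) and MDH2 (0.27, adjusted p = 0.033) were called with PC (13.7% of all genes). For ML versus EL, PC and the cytosolic malate dehydrogenase MDH1 (-0.47, adjusted p = 0.0021) fell and the mitochondrial aspartate aminotransferase GOT2 (0.23, adjusted p = 0.049) rose, so that 3 of 10 were called against 42.3% of all genes, with a list median of -0.06 against -0.01. Without batch B, MDH1 (-0.36, adjusted p = 0.054) and GOT2 (0.21, adjusted p = 0.12) were not called. For ML versus LP, PC and FBP1 fell and none rose, 2 of 10 against 15.4% of all genes, and without cows 426 and 3434 neither was called (8.57% of all genes).

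In muscle, 7 of the 8 tested gluconeogenic enzymes fell for EL versus LP (list median -0.56, all genes 0.01), when 58.3% of all genes were called and 27.9% fell, and all 8 rose for ML versus EL (list median 0.73, all genes 0.01), when 63.7% were called and 31.7% rose. With library totals in the edgeR fit, the medians of all genes were 0.38 and -0.41, and 69.1% and 72.3% of all genes were called. The counts of listed enzymes called were then smaller. For EL versus LP 4 fell and PCK1 rose (list median -0.21), with MDH1 (0.02) and the cytosolic aspartate aminotransferase GOT1 (0.03) turned in sign, and for ML versus EL 3 rose and none fell (list median 0.31), with MDH1 (-0.03) turned in sign. PC fell most, followed by FBP1 (-0.77, SE 0.31, adjusted p = 0.032), whose mean was only 0.66 CPM at LP and 0.38 CPM at EL and which was not called without batch B (-0.49, adjusted p = 0.20) or with library totals (-0.39, adjusted p = 0.27). For ML versus EL, PC and FBP1 (1.06, SE 0.31, adjusted p = 0.0030; 0.63, adjusted p = 0.067 with library totals) rose most. PCK1, at means of 0.31, 0.58 and 1.08 CPM at LP, EL and ML, was not called for EL versus LP (0.67, adjusted p = 0.14) and rose for ML versus LP (1.46, SE 0.37, adjusted p = 0.0094), when PC was the only other enzyme to rise.

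**Figure D5:**
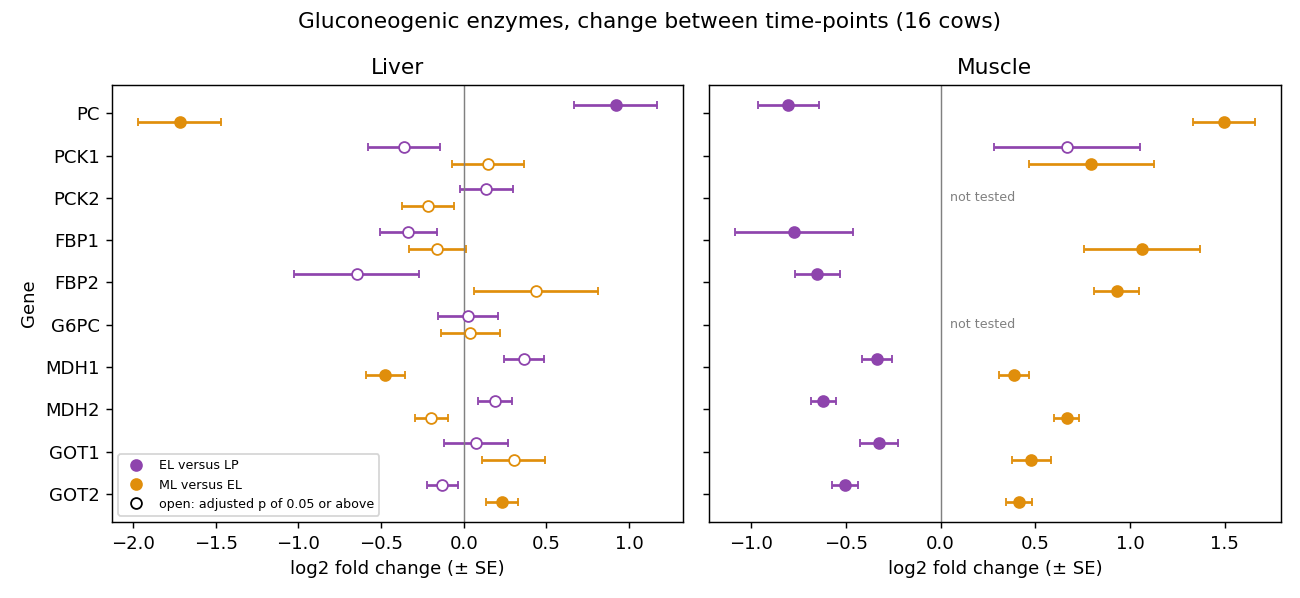
The log2 fold change (x) with its SE of 10 gluconeogenic enzymes (y) in liver (left) and muscle (right), purple for EL versus LP and orange for ML versus EL. Filled points have an adjusted p under 0.05. PC is the only filled purple point in liver (0.92). In muscle 7 of 8 purple points are filled and below 0 and all 8 orange points are filled and above 0. With library totals in muscle, 4 fell and PCK1 rose for EL versus LP (69.1% of all genes called). For ML versus EL 3 then rose (72.3% called), and MDH1 and GOT1 turned in sign.

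For the genes that bring propionate, lactate and glycerol into the pathway, 8 of 13 listed genes had an identifier. In liver the lactate dehydrogenase subunit gene LDHB rose with PC for EL versus LP (0.67, SE 0.18, adjusted p = 0.036), 1 of the 8 genes against 2.48% of all genes. Without batch B LDHB had the same log2 fold change of 0.67 but was not called (adjusted p = 0.24), and in this comparison leaving out 1 cow took the number of all genes called to between 8 and 1468. Without cows 426 and 3434 LDHB was called with the succinyl-CoA ligase subunit genes SUCLA2 (0.68, adjusted p = 0.017) and SUCLG1 (0.27, adjusted p = 0.038), when 13.7% of all genes were called. For ML versus EL, LDHA (-1.37, adjusted p = 3.4e-05), LDHB (-0.92, adjusted p = 1.7e-04) and SUCLA2 (-0.63, adjusted p = 0.0052) fell, and the glycerol channel gene AQP9 (0.69, adjusted p = 0.0014) and the methylmalonyl-CoA mutase gene MUT of the propionate route (0.38, adjusted p = 0.014) rose, 5 of 8 against 42.3% of all genes. For ML versus LP, LDHA fell (-1.13, adjusted p = 0.0012), and without batch B AQP9 was also called (0.47, adjusted p = 0.022). The list medians were 0.05, -0.01 and -0.03, against 0.01, -0.01 and -0.0045 over all genes. In muscle 6 of 7 fell for EL versus LP (58.3% of all genes called, 27.9% falling) and 6 of 7 rose for ML versus EL (63.7% called, 31.7% rising), led by the glycerol-3-phosphate dehydrogenase gene GPD1 (-1.87, then 2.10) and LDHA (-1.84, then 1.99), with adjusted p of 5.9e-09 at most, and none was called for ML versus LP. The muscle medians were -0.51, 0.46 and 0.06, against 0.01 over all genes in each comparison. With library totals 3 of the 7 fell and MUT rose (0.34) for EL versus LP (median -0.14, all genes 0.38), when 69.1% of all genes were called. With these totals 3 rose and MUT fell (-0.27) for ML versus EL (median 0.04, all genes -0.41), when 72.3% were called.

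Amino acid catabolism, the list that holds SDS, had 7 of 13 genes with an identifier. None was called in liver for EL versus LP (median -0.02, all genes 0.01). Without cows 426 and 3434 SDS and the arginase gene ARG1 (0.86, adjusted p = 2.9e-04) rose and HPD of tyrosine breakdown (-0.46, adjusted p = 0.026) fell, when 13.7% of all genes were called. With library totals ARG1 rose (0.66, adjusted p = 0.041), when 2.2% were called. For ML versus EL, SDS was the only gene that fell, while 3 rose, namely TDO2, which opens the tryptophan ring (0.61, SE 0.17, adjusted p = 0.0049), HPD (0.42, SE 0.13, adjusted p = 0.010) and the urea cycle gene CPS1 (0.30, SE 0.11, adjusted p = 0.036), with a list median of 0.30 against -0.01 over all genes. These are 4 of 7 genes in a comparison that called 42.3% of all genes. Without batch B, SDS and CPS1 (0.28, adjusted p = 0.054) were not called, and without cows 426 and 3434 the argininosuccinate synthase gene ASS1 (0.34, adjusted p = 0.041) also rose, as it did with library totals (0.34, adjusted p = 0.033). For ML versus LP, ARG1 rose (0.65, adjusted p = 0.020; list median 0.27), 1 of 7 against 15.4% of all genes. Without batch B ARG1 was not called (0.58, adjusted p = 0.0996) and TDO2 was (0.49, adjusted p = 0.037). With library totals ARG1, TDO2, CPS1 and ASS1 all rose, 4 of 7 against 12.9% of all genes. In muscle 3 were tested, and ASS1 rose for EL versus LP (1.15) and fell for ML versus EL (-0.95), whereas HPD rose for ML versus EL (1.04) and for ML versus LP (0.75), with adjusted p of 6.1e-04 at most. The muscle medians were -0.29, 0.11 and 0.20, against 0.01 over all genes in each comparison. These muscle comparisons called 58.3%, 63.7% and 9.1% of all genes. With library totals HPD (0.06) and SDS (0.06) turned in sign for EL versus LP and SDS (-0.29) for ML versus EL, giving medians of 0.06, -0.29 and 0.15, while the calls of ASS1 and HPD were kept. Those fits called 69.1%, 72.3% and 8.58% of all genes.

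Of the list of glycolytic and pyruvate-oxidising counterparts, 3 of 13 genes had an identifier. The list holds genes that run against gluconeogenesis or oxidise pyruvate, and also PDK4, whose product inhibits that oxidation. Its medians therefore mix both kinds. In liver none was called for EL versus LP or for ML versus LP (medians -0.10 and -0.02), when 2.48% and 15.4% of all genes were called. For ML versus EL the phosphofructokinase gene PFKM rose (0.38, adjusted p = 0.0073) and the pyruvate dehydrogenase subunit gene PDHA1 fell (-0.25, adjusted p = 0.030; median 0.16), 2 of 3 against 42.3% of all genes. PDHA1 was not called there without batch B (-0.16, adjusted p = 0.24) or with library totals (-0.20, adjusted p = 0.088), and it rose for EL versus LP without cows 426 and 3434 (0.31, adjusted p = 0.013). In muscle the pyruvate dehydrogenase kinase gene PDK4, whose product shuts pyruvate out of oxidation, rose for EL versus LP (1.65) as PC fell, fell for ML versus EL (-2.61) as PC rose, and was lower for ML versus LP (-0.96, adjusted p = 0.012). PFKM (-0.56, then 0.68) and PDHA1 (-0.52, then 0.60) went the way of PC in muscle (list medians -0.52, 0.60 and 0.08). In muscle 58.3% of all genes were called for EL versus LP, 63.7% for ML versus EL and 9.1% for ML versus LP. With library totals PDHA1 was not called for EL versus LP (-0.16, adjusted p = 0.061).

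Of 11 listed regulators 2 had an identifier. FOXO1, a transcription factor that insulin signalling holds out of the nucleus, was called in liver for ML versus LP only (-0.33, adjusted p = 0.0082), which was lost with library totals (-0.25, adjusted p = 0.11), and in muscle it rose for EL versus LP (1.14, adjusted p = 0.0050) and fell for ML versus EL (-2.30, adjusted p = 1.4e-06) and ML versus LP (-1.16, adjusted p = 0.039), the last of which was not called without batch B (-1.04, adjusted p = 0.11) or without cows 426 and 3434 (-0.97, adjusted p = 0.16). PPARGC1A was not called in any of the 6 comparisons. The liver medians of this list were 0.02, -0.23 and -0.21, against 0.01, -0.01 and -0.0045 over all genes. The muscle medians were 0.56, -1.13 and -0.57, against 0.01 over all genes in each comparison. For EL versus LP, ML versus EL and ML versus LP, 2.48%, 42.3% and 15.4% of all genes were called in liver. In muscle 58.3%, 63.7% and 9.1% were called.

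The genes with a known symbol whose log2(CPM + 1) over the 48 libraries of a tissue was most like each member were ranked by Pearson r, as a description, since the libraries of a cow and of a time-point are not independent. For PC in liver they were CGREF1 (r = 0.82), ACADVL of fatty acid oxidation (0.82), LDHA (0.81), ANGPTL4, an inhibitor of lipoprotein lipase (0.81), and the mitochondrial pyruvate carrier gene MPC1 (0.80), of 1808 genes compared. For SDS in liver they were BHLHA15 (0.86), the glycine N-methyltransferase gene GNMT (0.79), SEC61G (0.79), the amino acid transporter gene SLC38A2 (0.78) and C1orf122 (0.78). For FBP2 in muscle they were HFE2 (0.89), SRL (0.88), the muscle glycogen phosphorylase gene PYGM (0.88), WWP1 (0.86) and SYPL2 (0.86), of 1608 genes compared.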

How the data were processed

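Reads had been trimmed (Trimmomatic) and aligned to UMD_3.1 (Ensembl70) with STAR by the authors, who kept proper pairs and deposited, for each of 96 libraries, unnormalised counts of read pairs per gene from featureCounts. Cow, genotype, tissue and time-point come from the labels. Another 96 count columns without sample names were not used. PC, SDS, FBP2 and all lists were chosen with earlier results of these data known. Counts were fitted with edgeR 4.0.16 (R 4.3.3, limma 3.58.1): quasi-likelihood test, robust, genes of filterByExpr, TMM factors, Benjamini-Hochberg adjustment. The cow was the block between time-points, where 39 of 48 liver and 42 of 48 muscle same-cow pairs of residuals correlated above 0.1. DESeq2 1.42.0 was an alternative. CPM, exact permutation tests (pseudocount 1) and correlations (100000 resamples) used scipy 1.17.1, pandas 2.3.3 and numpy 2.4.6 under Python 3.11.15. The fits and permutation tests were tested on simulated data. None of 336 library pairs within a group was identical.

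Named genes are PC, SDS, FBP2, FBP1, PCK1 and G6PC, the called genes of each list with the largest fold changes (at most 3 rising and 3 falling in liver, 2 in muscle), and the 5 genes most like each member. Symbols were known for 2157 identifiers. Some listed genes are not reported here and were left out of the lists. No sequences are shown because no sequence reference was used here.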

Additional observations from a re-analysis of the deposited data

Results flagged for a closer look

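Of 36 sets of 8 libraries, 4 held a library whose distance from the nearest other exceeded Dixon's critical share of the whole range on the log2 scale, where chance gives about 1 in 20. In liver of Fert- cows at LP, the library labelled LP of cow 426 held 2790 CPM of PC against 617 CPM in the next, and 198 CPM of SDS against 13.5 CPM. In muscle at ML, SDS was at 5.78 CPM in cow 33 (Fert+) against 1.62 CPM in the next, and at 9.36 CPM in cow 829 (Fert-) against 1.74 CPM.

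The change between time-points differed between liver and muscle by 1.68 (EL minus LP), -3.12 (ML minus EL) and -1.44 (ML minus LP) for PC, by -1.06 (ML minus EL) for SDS and by -0.44 (ML minus LP) for FBP2, each with an unadjusted exact sign-flip p under 0.05 over 9 differences. The change of FBP2 in liver differed between Fert+ and Fert- by 1.02 (ML minus EL) and 0.74 (ML minus LP), with unadjusted exact permutation p of 0.033 and 0.047 over 18 differences.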

How the results depend on the processing

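The fall of PC from EL to ML in liver and its course in muscle kept their direction and call in every alternative run, as did the LP to EL fall and EL to ML rise of FBP2 in muscle and the 3 contrasts between liver and muscle levels. The remaining changes are listed below on the log2 scale, and their cause was not tested. Results near 0 turned with little change of the data. Depth limits SDS in muscle and FBP2 in the low liver cows, where few read pairs were counted, and p values measure only the spread between these cows. Alternatives without cows 426 and 3434, without cows that had a batch B library, with library totals in the fits between time-points, and those of the lists were chosen after seeing the data. Cows 426 and 3434 were picked by the LP to EL change itself.

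With no replicate block, liver PC for EL versus LP was 0.787 and not called, FBP2 for ML versus LP in liver was 0.0515, SDS for ML versus LP in muscle was 0.286, and 713 genes were called for ML versus LP in muscle. The pairing by cow changed no other call of the 3 genes. With no gene filter PC for EL versus LP was 0.923 and not called (193 genes called), and with counting batch as a term it was 0.887. The DESeq2 Wald test called SDS for EL versus LP in liver (1.21; 889 genes called). It gave SDS genotype differences of 0.208 (liver LP), -0.725 (liver EL) and 0.863 (muscle ML), opposite in sign to edgeR, and called 6 and 77 genes by genotype in liver at EL and ML, and 27, 119 and 10 in muscle at LP, EL and ML.

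The exact test with 1 common dispersion called PC (-0.796), SDS (-1.43) and FBP2 (-0.776) by genotype in liver at LP, FBP2 in liver at EL (-1.75) and SDS in muscle at EL (0.923), with 306, 301 and 279 genes called in liver and 214, 438 and 214 in muscle.

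Without counting batch B, PC for EL versus LP was 0.624 (0 genes called, 1600 at an unadjusted p under 0.05), SDS for ML versus EL -0.705, PC for ML versus LP -0.836 and FBP2 for ML versus LP 0.0632 in liver. The genotype difference was -0.026 for SDS in liver at EL and 0.0722 for PC in muscle at EL (0 genes called), and r of PC and SDS at EL was 0.225. Among cows without a batch B library, within-cow changes were 0.668 (PC, EL minus LP, liver), -0.656 (SDS, ML minus EL, liver), 0.0451 (SDS, ML minus LP, liver), 0.0305 (SDS, ML minus LP, muscle) and 0.0584 (FBP2, ML minus LP, liver).

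Without cows 426 and 3434, the fits gave SDS 1.70 for EL versus LP (1841 genes called), PC -0.561 and SDS 0.245 for ML versus LP in liver (1148 genes called), with 686 genes called for ML versus LP in muscle. The within-cow changes of SDS were 1.47 (EL minus LP) and 0.193 (ML minus LP) in liver and 0.00269 (ML minus LP) in muscle. The r of PC and SDS was 0.265 at LP and 0.486 for their changes, and that of FBP2 and skeletal muscle markers at ML was -0.613, which was -0.522 with log2(CPM + 0.1).

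With library totals, within-cow changes of SDS were -0.926 (ML minus EL) and 0.0624 (ML minus LP) in liver and 0.0877 (EL minus LP) and -0.135 (ML minus EL) in muscle, the fits gave SDS 0.068 for ML versus LP in liver and 0.0568 (EL versus LP) and -0.295 (ML versus EL) in muscle, and liver minus muscle differences were -0.79 (SDS, ML minus EL), -0.141 (FBP2, EL minus LP) and -0.339 (FBP2, ML minus LP). With a pseudocount of 0.1, they were 1.28 (SDS, EL minus LP), -0.0273 (FBP2, EL minus LP) and -0.525 (FBP2, ML minus LP), and the Fert+ minus Fert- difference in change was 0.00392 (PC, muscle, EL minus LP) and 0.848 (FBP2, liver, ML minus LP).

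Leaving out each cow in turn gave the following ranges where a sign, a call or a count changed. For the within-cow change these were 0.69 to 1.3 (SDS liver EL minus LP), -1.12 to -0.68 (SDS liver ML minus EL), -0.1 to 0.18 (SDS liver ML minus LP), -0.00384 to 0.143 (SDS muscle ML minus EL), -0.164 to 0.0222 (SDS muscle ML minus LP) and -0.226 to 0.0381 (FBP2 liver ML minus LP). For the liver minus muscle difference these were 0.811 to 1.3 (SDS EL minus LP), -0.0911 to 0.162 (SDS ML minus LP), -0.873 to -0.524 (FBP2 ML minus EL) and -0.515 to -0.252 (FBP2 ML minus LP). For the fitted change between time-points these were 0.809 to 1.14 (PC liver EL versus LP), 0.881 to 1.53 (SDS liver EL versus LP), -1.39 to -0.924 (SDS liver ML versus EL), -0.964 to -0.58 (PC liver ML versus LP), -0.135 to 0.222 (SDS liver ML versus LP), -0.374 to 0.129 (FBP2 liver ML versus LP) and -0.0673 to 0.223 (SDS muscle ML versus EL). For the fitted genotype difference these were -1.67 to 0.215 (SDS liver LP), -0.38 to 0.139 (PC liver EL), -0.731 to 1.19 (SDS liver EL), -0.171 to 0.999 (FBP2 liver ML), -0.0303 to 0.223 (PC muscle LP), -0.141 to 0.159 (PC muscle EL) and -0.85 to 0.903 (SDS muscle ML). For the number of genes called these were 8 to 1468 (liver EL versus LP), 1344 to 2356 (liver ML versus LP), 0 to 4 (muscle LP), 0 to 7 (muscle EL) and 0 to 2 (muscle ML).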
